A study of Mus musculus with 6 samples.

Results

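Mesothelial cells are the flat epithelium that covers the pancreas and lines the peritoneal cavity. They carry keratins and surface proteins like an epithelium and arise from mesoderm like fibroblasts. Their keratin, junction and surface genes are commonly used to tell them from fibroblasts, although in culture they can take on a mesenchymal form. The genes described here are 10 such markers, Gpm6a, Krt7, Krt8, Krt18, Krt19, Ezr, Cdh1, Msln, Upk3b and Wt1, found in the table of raw counts by their symbol. Of the 10, 8 have a row among the 14831 genes of the table and 7 passed the filter on low counts. Krt18 and Krt19, which encode partner keratins of simple epithelia, matched no row and were not analysed here. The list was chosen from results of this same comparison, so the differences of its members between the groups are given as a description, with no test.

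The libraries come from immortalized mouse pancreatic fibroblasts of mixed strain, 3 labelled WT and 3 labelled Gli2-/-;Gli3-/- (called KO), each from a separate well grown to confluence in calf serum. According to the methods of the study, such lines grew out of minced, collagenase-digested pancreas of adult mice with floxed Gli alleles. Control lines received an eGFP adenovirus and a dsRed lentivirus, knockout lines an eGFP and a Cre adenovirus, infected cells were sorted, and recombination was screened by qPCR and western blot. No sort for a fibroblast or mesothelial marker is described. Wells of a line share its history, so the spread between them is that of culture and library preparation and not of independently derived lines. Depth ran from 31728420 to 33905521 counts under the WT label and from 32781730 to 41035931 under the KO label. Whole-gene counts of the targeted genes go against the labels: Gli2 had 809 to 944 under the WT label and 1926 to 2316 under the KO label. Gli3 had 392 to 416 and 1404 to 1637. Counts per gene cannot show whether the floxed part was lost, and whether the labels were exchanged was not tested. Groups are therefore named by their labels throughout, and an exchange of the labels would turn the sign of every ratio and the direction of every call given here. Fibroblast markers were uneven. Col1a1 was at 16000 and 16100 CPM (counts scaled to a common library total) on average in the libraries labelled WT and KO, Thy1 was at 0.0525 and 0.39 CPM, and Lum was at 11.7 and 0.24 CPM.

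The listed genes for surface proteins, Msln, Upk3b and Gpm6a, were at higher levels in all 3 libraries labelled KO than in the 3 labelled WT. Msln, which encodes the GPI-anchored glycoprotein mesothelin (chromosome 17 from 25748613 to 25754378 on GRCm38), was counted 77, 91 and 62 times under the WT label and 5949, 6904 and 5392 under the KO label. That was 2.37 ± 0.394 against 166 ± 2.33 CPM (SD, n = 3 each), a log2 ratio of 6.12 ± 0.06, or 69.6-fold. Log2 ratios (log2 fold changes) are KO label over WT label. The ± beside a log2 ratio is its standard error, and beside CPM or a length-scaled level it is the SD of 3 libraries. All 3 libraries labelled KO lay within 163 to 168 CPM, and no library labelled WT exceeded 2.72 CPM. In bulk RNA, a larger share of cells that express a gene and more of its RNA per cell cannot be told apart.

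Upk3b encodes a uroplakin, a membrane protein first known from the bladder lining and also made by mesothelium. It lies on chromosome 5 from 136038496 to 136046487 and was counted 590, 631 and 551 times under the WT label and 2336, 2868 and 2306 under the KO label. The groups did not overlap, with 18.3 ± 0.908 and 68.2 ± 2.01 CPM and a log2 ratio of 1.90 ± 0.05. The lowest library labelled KO had 66.0 CPM and the highest labelled WT 18.8 CPM.

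Gpm6a encodes a tetraspan membrane glycoprotein of the proteolipid family that is best known from neurons and is also a mesothelial marker. The gene (chromosome 8 from 54954843 to 55060871) was counted 1, 3 and 2 times under the WT label and 267, 377 and 268 under the KO label. The libraries labelled WT thus sat at or below a floor of 3 counts per library, which is 0.0896 to 0.0957 CPM there. Against that floor Gpm6a was at least 88.5-fold higher under the KO label, where it reached 8.24 ± 0.760 CPM. Of the 8 members with a row, Gpm6a and Krt8 were at or below the floor in 1 group.

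Ezrin, the product of Ezr, ties the plasma membrane to cortical actin in microvilli of epithelial and mesothelial cells. Ezr (chromosome 17 from 6738041 to 6782784) was counted 752, 808 and 786 times under the WT label and 5715, 7157 and 5416 under the KO label. Its level was 24.2 ± 0.331 and 166 ± 5.37 CPM, a log2 ratio of 2.77 ± 0.04. In these units Ezr was the member with the smallest spread between the wells labelled WT, with a coefficient of variation of 1.36%.

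Krt7 and Krt8 encode type II keratins, which form filaments with type I partners such as the products of Krt18 and Krt19. Krt7 (chromosome 15 from 101411043 to 101430313) was counted 153, 144 and 126 times under the WT label and 811, 975 and 760 under the KO label, or 4.38 ± 0.472 and 23.1 ± 0.257 CPM. Its log2 fold change was 2.40 (standard error 0.07), and the groups did not overlap. Krt8 (chromosome 15 from 101996698 to 102004482), the most widely used keratin of simple epithelia, was close to the limit of detection. It was counted 1, 0 and 2 times under the WT label and 7, 9 and 12 under the KO label, at least 2.78-fold higher against the floor of 3 counts per library, and did not pass the filter. Krt8 has processed pseudogene copies of near-identical sequence, and 101 of its annotated exon bases overlap the noncoding gene Gm36026 on the other strand, so counting could have moved reads to or from it.

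Cdh1 encodes E-cadherin, the classical adhesion molecule of epithelial junctions. It was rare in both groups. Cdh1 (chromosome 8 from 106603351 to 106670246) was counted 10, 14 and 9 times under the WT label and 28, 33 and 19 under the KO label, or 0.340 ± 0.0703 and 0.719 ± 0.125 CPM. The log2 fold change of 1.08 had the largest standard error of the members above the floor in both groups, 0.27, and no library reached 1 CPM.

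Wt1 encodes the zinc-finger transcription factor of the developing coelomic lining, which adult mesothelium keeps. The gene (chromosome 2 from 105126529 to 105173616) was counted 59, 53 and 44 times under the WT label and 202, 256 and 176 under the KO label. Its level was 1.61 ± 0.254 and 5.73 ± 0.406 CPM, a log2 ratio of 1.83 ± 0.13. The lowest library labelled KO, at 5.33 CPM, was above the highest labelled WT, at 1.88 CPM.

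**Figure D1:**
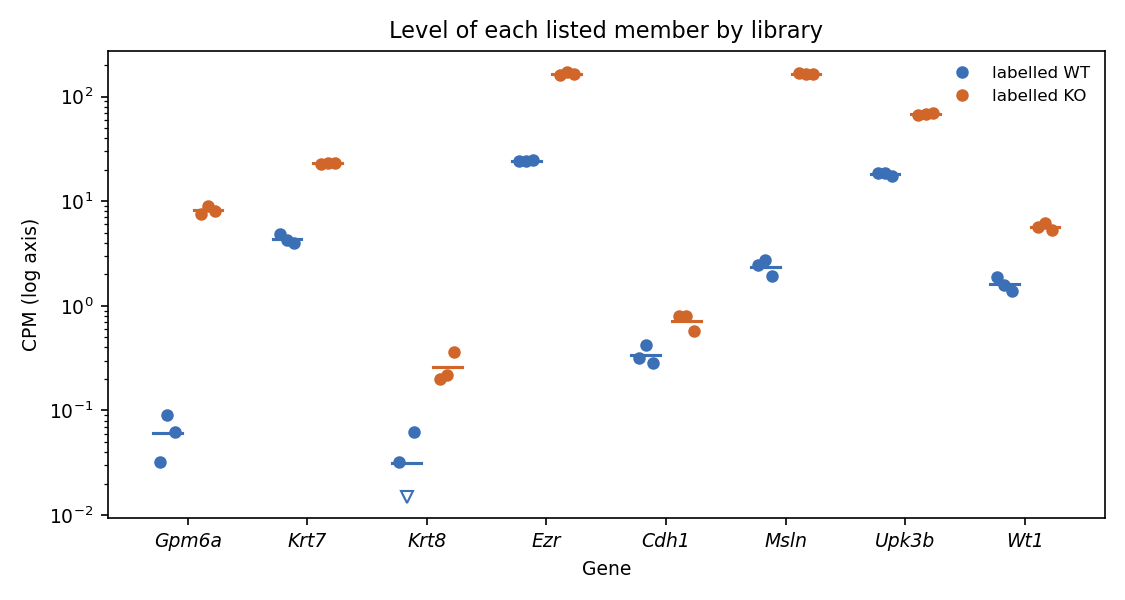
Level of the 8 members with a row in the table, in CPM on a log axis, for each library labelled WT (blue) and labelled KO (orange), with a bar at the mean of the 3 libraries; the open triangle stands for a library with 0 counts. For every gene all 3 orange points lie above all 3 blue points, with the widest gaps at Msln (2.37 against 166 CPM) and Gpm6a (0.0614 against 8.24 CPM).

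In all 8 members each library labelled KO was above each library labelled WT, where 32.9% of all genes tested showed that order. All 7 members tested met both limits of a call, 0.05 for the adjusted p and 1.5-fold for the size, in the higher direction, limits that 17.7% of the 14289 genes passed in either direction, 11.6% higher and 6.10% lower. Because the list was picked with these differences known, nothing is read from either count. The median log2 fold change of the 7 was 2.40, also with Gpm6a set to its lower bound, and that of all genes tested was 0.00. The sizes differed widely, from 1.08 for Cdh1 to 6.12 for Msln among members above the floor in both groups.

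Scaled to the length of their annotated exons, as RPKM (CPM per kilobase), the members ran in a different order in the groups. In the libraries labelled WT, Ezr (7.37 ± 0.10 RPKM) and Upk3b (5.19 ± 0.257) were the highest, followed by Msln (0.774 ± 0.129) and Krt7 (0.621 ± 0.0670), whose ranges overlapped. Wt1 (0.261 ± 0.0410) and Cdh1 (0.0743 ± 0.0154) came next, and Gpm6a (0.0191 ± 0.00897) and Krt8 (0.0161 ± 0.0160) closed the order with overlapping ranges. In the libraries labelled KO, Msln took the first place with 54.1 ± 0.762 RPKM, above Ezr at 50.4 ± 1.63, and their ranges of 53.3 to 54.8 and 49.1 to 52.2 did not meet. Upk3b followed at 19.3 ± 0.570, Krt7 at 3.28 ± 0.0365, Gpm6a at 2.56 ± 0.236 and Wt1 at 0.924 ± 0.0656 RPKM. Cdh1 (0.157 ± 0.0272) and Krt8 (0.132 ± 0.0464) were last under this label and overlapped. Under the KO label Msln, Ezr and Upk3b thus stood above the other members in these units. The length used for Krt7, 7049 bases, is the union of all its annotated exons and lowers its RPKM where a shorter transcript is the one expressed.

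**Figure D2:**
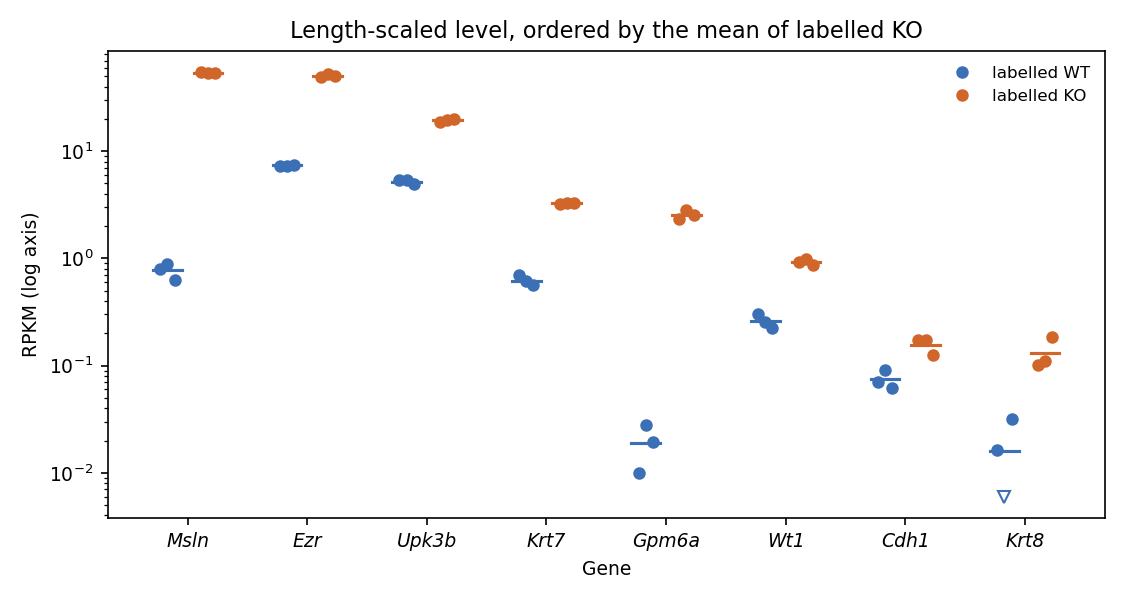
Length-scaled level of each member in RPKM on a log axis, ordered by the mean of the libraries labelled KO, with points and bars for each group as in the plot of CPM. Msln stands between Upk3b and Krt7 in the libraries labelled WT (0.774 RPKM) and first in those labelled KO (54.1 RPKM).

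The sequence just upstream of the annotated starts is shown for Ezr, Upk3b and Gpm6a, members that were higher together and whose windows hold at most 4 annotated exon bases. No window was available for Msln, Wt1, Cdh1 or Krt19, so their upstream sequences were not searched. Each window is the 250 bases before a RefSeq start on GRCm38.p6, given 5′ to 3′ along the gene's strand. That of Ezr is chr17:6782781-6783030 on the minus strand and that of Upk3b chr5:136038246-136038495 on the plus strand. Gpm6a has 2 listed starts, a distal one behind chr8:54779184-54779433 and a proximal one behind chr8:54954478-54954727, both on the plus strand. Both starts lie before the GENCODE interval given above. Capitals mark matches to the motifs searched on both strands, which are GACCACCCA for GLI factors, CACCTG for the E-box of Snail and Zeb factors, CCGCCC for the GC box, TATAAA for the TATA box, TGANTCA for AP-1, GGAATG for TEAD factors and GCGTGGGNG for EGR and WT1.
Ezr: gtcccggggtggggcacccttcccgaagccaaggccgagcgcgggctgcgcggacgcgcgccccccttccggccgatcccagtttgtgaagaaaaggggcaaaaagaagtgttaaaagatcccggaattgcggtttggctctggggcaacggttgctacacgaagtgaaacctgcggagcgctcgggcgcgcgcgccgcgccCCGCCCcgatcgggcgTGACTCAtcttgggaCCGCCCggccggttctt
Upk3b: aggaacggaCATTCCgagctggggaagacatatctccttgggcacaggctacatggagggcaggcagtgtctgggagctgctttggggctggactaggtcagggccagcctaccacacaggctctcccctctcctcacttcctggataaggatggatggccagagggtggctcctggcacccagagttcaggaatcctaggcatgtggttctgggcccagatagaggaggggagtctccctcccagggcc
Gpm6a distal: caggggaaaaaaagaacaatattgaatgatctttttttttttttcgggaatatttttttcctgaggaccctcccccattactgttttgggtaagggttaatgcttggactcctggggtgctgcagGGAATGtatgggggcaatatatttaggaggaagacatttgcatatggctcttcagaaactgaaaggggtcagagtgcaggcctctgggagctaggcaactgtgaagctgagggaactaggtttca
Gpm6a proximal: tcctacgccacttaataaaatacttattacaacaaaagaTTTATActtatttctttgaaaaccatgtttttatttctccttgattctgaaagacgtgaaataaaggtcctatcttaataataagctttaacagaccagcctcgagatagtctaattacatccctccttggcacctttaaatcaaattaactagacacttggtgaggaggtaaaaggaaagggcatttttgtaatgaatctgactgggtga

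The windows differed in composition and in their matches. The Ezr window is 67.2% G and C, above the median of 52.4% over 32851 promoter windows, and holds an AP-1 match between GC boxes that start 48 and 17 bases before the start of transcription. The Upk3b window (60.8% G and C) and the distal Gpm6a window (44.4%) each hold 1 TEAD match, starting 241 and 125 bases before the start, and the proximal Gpm6a window (33.6%) holds 1 TATA box letter match on the opposite strand. The windows of Krt7 and Krt8, not printed because part of each is annotated exon, hold the E-box letters, starting 44 and 111 bases before the start, and that of Krt7 also 4 GC boxes. The window of Krt18 holds them at 214 bases. In the windows of these members no match overlapped another, and none held the GLI or the EGR and WT1 letters. Of all windows, 6.75% hold the AP-1 letters, 12.6% TEAD, 17.2% the E-box, 32.7% the GC box, 12.4% the TATA box, 1.65% EGR and WT1, and 0.225% GLI. A match is a match of letters only, and a window without one says nothing about binding elsewhere.

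Other mesothelial markers, from a list that holds none of the members, were mostly higher in the libraries labelled KO as well. This list and those that follow were also chosen with earlier results of these data known. Their counts of calls and adjusted p values are therefore a description and not independent evidence. Of 20 listed genes 15 were tested. Of these, 9 were called higher and 1 lower at the limits that 11.6% and 6.10% of all genes passed, and 5 were not called, while the list's median log2 fold change was 1.00 against 0.00 over all genes. Pkhd1l1, which encodes a large membrane protein related to fibrocystin, was counted 11, 10 and 10 times under the WT label and 1171, 1600 and 1493 under the KO label, a log2 ratio of 6.91 ± 0.19 (edgeR adjusted p = 1.26e-11). The zinc-finger transcription factor gene Bnc1 had 46, 68 and 60 counts against 2085, 2492 and 2036, a log2 ratio of 5.06 ± 0.07 (edgeR adjusted p = 4.74e-14).

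The groups did not overlap in the next genes of that list either. Lrrn4, a leucine-rich repeat gene used as a mesothelial marker, was counted 38, 42 and 28 times under the WT label and 982, 1097 and 940 times under the KO label, a log2 ratio of 4.62 ± 0.10 (edgeR adjusted p = 1.24e-12). Upk1b, which encodes the tetraspanin uroplakin 1B, was counted 38, 41 and 35 times under the WT label and 834, 1077 and 838 times under the KO label, with a log2 ratio of 4.40 ± 0.09 (edgeR adjusted p = 9.96e-13). Cd200, a membrane glycoprotein gene, was counted 0, 2 and 0 times under the WT label and 26, 34 and 28 under the KO label, at least 8.59-fold higher against the floor.

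Members of the same list did not all follow. Anxa8 (961 and 1110 CPM), C3 (798 and 1000 CPM) and Gata6 (60.0 and 72.3 CPM) were abundant in both groups, with log2 fold changes of 0.21, 0.33 and 0.27 that lie under the fold limit. Ildr2 fell by 0.84 on the log2 scale (standard error 0.03, edgeR adjusted p = 1.27e-10), from 210 to 118 CPM. Cldn15, Rspo1, Slpi and Podxl, named after their values were seen to complete the 9, had log2 fold changes of 2.03, 1.64, 1.00 and 0.60. Podxl was not called without the third library labelled WT (0.48) or the first labelled KO (0.54). Calb2, Muc16, Dmkn, Aldh1a2 and Pdpn matched no row and were not analysed here.

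**Figure D3:**
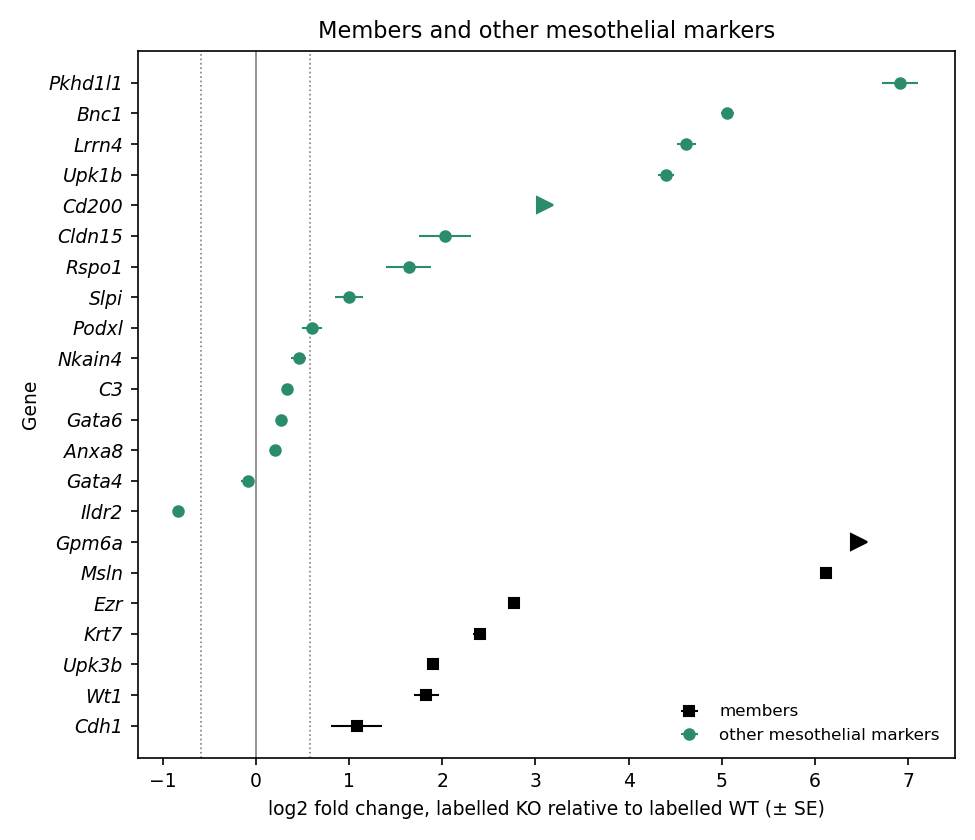
Log2 ratio of the KO label over the WT label, with its standard error, for the 7 members tested (black squares) and the 15 other mesothelial markers tested (green circles); triangles are lower bounds for genes at the floor in the libraries labelled WT, and dotted lines mark 1.5-fold. Pkhd1l1 (6.91), Bnc1 (5.06), Lrrn4 (4.62) and Upk1b (4.40) lie beside Msln (6.12), and Ildr2 (-0.84) lies on the other side.

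Transcription factors of the coelomic epithelium, the embryonic source of mesothelium, went both ways. Of 10 listed, 8 were tested, and 3 were called higher and 1 lower, where 11.6% and 6.10% of all genes were, with a median log2 fold change of 0.35. Bnc1, Gata4 and Gata6 are also among the other mesothelial markers. Bnc1, also counted above, was the largest. Emx2, a homeobox gene of the urogenital ridge, had a log2 ratio of 0.84 ± 0.08 (edgeR adjusted p = 1.10e-06), and Lhx9, a LIM homeobox gene, one of 0.81 ± 0.25 (edgeR adjusted p = 0.015). Lhx9 was not called without the third library labelled WT (0.73) or the third labelled KO (0.69). Osr1, a zinc-finger gene of intermediate mesoderm, fell by 1.16 on the log2 scale (standard error 0.05, edgeR adjusted p = 1.57e-09), from 52.9 to 23.6 CPM. Hand2 (144 and 193 CPM, log2 fold change 0.42) did not reach the fold limit.

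Relatives of Upk3b, Msln and Gpm6a were tested for 4 of 10 listed genes, and 1, Upk1b, was called higher, where 11.6% of all genes were. The Gpm6a paralog Gpm6b was at 29.5 and 27.3 CPM in the libraries labelled WT and KO, with a log2 ratio of -0.11 ± 0.06. For Upk1a it was 0.35, which did not pass the test. Per length, Gpm6b stood at 5.26 ± 0.523 and 4.88 ± 0.165 RPKM, and Gpm6a, as given above, at 0.0191 and 2.56 RPKM.

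Keratin genes beyond the members were sparse. Of 16 listed, 3 had a row and 2 were tested. Krt80, an epithelial type II keratin gene 40.9 kb from Krt7, was counted 396, 362 and 345 times under the WT label and 906, 1010 and 769 times under the KO label, a log2 ratio of 1.10 ± 0.07 (edgeR adjusted p = 2.93e-08). Krt10, a keratin of differentiated epidermis, had a log2 fold change of -0.12 and was not called. Krt17, named after its values were seen, was at 0 counts throughout the WT label and at 12, 13 and 4 under the KO label, and did not pass the filter. It passed and was called, making 2 keratins, when any 1 library labelled WT or the third labelled KO was left out.

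Filament and linker genes other than keratins were abundant in part. Of 12 listed intermediate filament and linker genes 11 were tested. Of these, 3 were called, all higher, where 11.6% of all genes were, and the median was 0.14. Vim, which encodes the mesenchymal filament vimentin, was at 4290 and 3910 CPM (log2 fold change -0.13), and Lmna, Plec, Dst and Macf1 were between 395 and 976 CPM with log2 fold changes from -0.20 to 0.14. Nes, which encodes nestin, was counted 7, 3 and 3 times under the WT label and 98, 113 and 82 times under the KO label, a log2 ratio of 4.27 ± 0.26 (edgeR adjusted p = 2.56e-08). Eppk1 (0.97) and Synm (0.59) were near the limits. Eppk1 was not called without the second library labelled WT (0.54), the second labelled KO (0.93) or the third labelled KO (0.88), and Synm not without the same 3 libraries (0.53, 0.57 and 0.48).

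Genes of epithelial junctions went both ways. Of 35 listed, 19 were tested, and 5 were called higher and 1 lower, where 11.6% and 6.10% of all genes were. The median log2 fold change was 0.17. The cell polarity gene Pard6b was counted 32, 30 and 30 times under the WT label and 405, 457 and 370 times under the KO label, a log2 ratio of 3.55 ± 0.11 (edgeR adjusted p = 2.60e-11). The desmosomal plaque gene Pkp1 was counted 2, 4 and 0 times under the WT label and 57, 72 and 46 under the KO label, with a log2 ratio of 4.6 ± 0.40 (edgeR adjusted p = 6.96e-07). Ppl, which encodes periplakin, and Cgn, which encodes the tight junction protein cingulin, had log2 fold changes of 1.5 and 1.26.

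The catenins and several other junction genes did not share that direction. F11r, which encodes the junctional adhesion molecule JAM-A, fell by 0.74 on the log2 scale (standard error 0.03, edgeR adjusted p = 1.07e-09), from 156 to 93.8 CPM. Jup (-0.43), Cldn1 (-0.53), Ctnna1 (-0.31), Ctnnb1 (-0.27) and Tjp1 (-0.24) were lower by less than the fold limit, Nectin2 (0.55) was higher by less than it, and Ctnnd1 was at 0.03. Nectin2 was called without the first library labelled WT (0.60). Epcam, the standard surface marker of epithelium, and the claudin genes Cldn3, Cldn4 and Cldn7 matched no row and were not analysed here.

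Epithelial regulators and membrane-protease genes were tested for 5 of 20 listed, with 3 called higher and 1 lower and a median of 1.16. Of all genes, 11.6% were called higher and 6.10% lower. Spint2, which encodes a Kunitz inhibitor of membrane serine proteases, was counted 6, 15 and 6 times under the WT label and 79, 86 and 59 times under the KO label, a log2 ratio of 2.85 ± 0.27 (edgeR adjusted p = 1.45e-06). The transcription factor genes Tfap2a and Klf5 had log2 fold changes of 1.72 ± 0.13 (edgeR adjusted p = 1.98e-07) and 1.16 (standard error 0.07, edgeR adjusted p = 3.92e-08). Foxa2, a factor of endoderm, fell by 0.72 on the log2 scale, from 44.5 to 27.1 CPM. Esrp2, a splicing regulator of epithelia, was at 9.99 and 11.1 CPM, with a log2 fold change of 0.15 that did not pass the test.

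**Figure D4:**
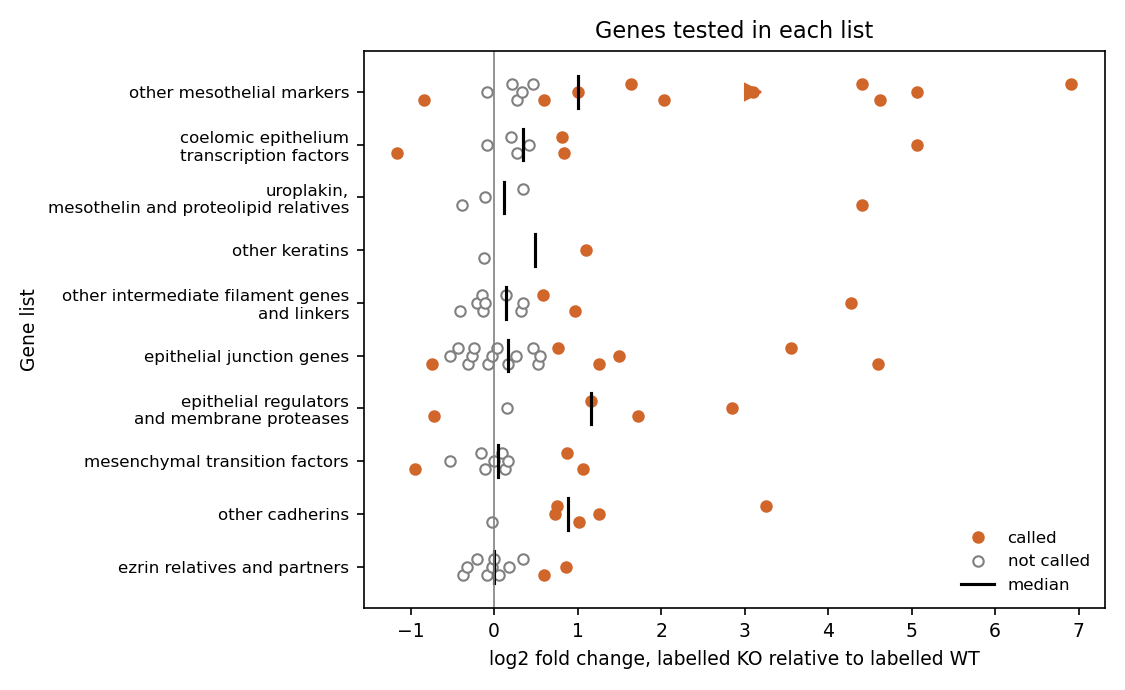
Log2 fold change of every gene tested in the 10 other lists, with called genes in orange, genes not called as open circles, the list's median as a black bar and the lower bound of Cd200 as a triangle; Gata4, Gata6, Bnc1, Upk1b and Podxl are each in more than 1 list. Medians run from 0.00 for ezrin relatives and partners to 1.16 for epithelial regulators, and 1.00 for other mesothelial markers.

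Factors that drive the mesenchymal state were expressed in both groups. All 10 listed were tested, and 2 were called higher and 1 lower, where 11.6% and 6.10% of all genes were, with a median of 0.05. Snai1 (34.4 and 37.8 CPM), Snai2 (30.3 and 30.3 CPM), Zeb2 (78.8 and 73.2 CPM) and Twist1 (27.3 and 30.8 CPM), repressors and activators known from the loss of E-cadherin, had log2 fold changes between -0.11 and 0.17. Zeb1 was lower without overlap, from 176 to 121 CPM (log2 fold change -0.53, standard error 0.03, edgeR adjusted p = 4.79e-08), by less than the fold limit. Tcf3 (0.10) also lay under that limit. Prrx1, a homeobox gene of mesenchyme, rose by 0.87 ± 0.04 (edgeR adjusted p = 4.70e-09) from 49.4 to 90.3 CPM, Foxc2 rose by 1.07, and Tcf4 fell by 0.95 on the log2 scale, from 261 to 135 CPM.

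Cdh2, Cdh11 and Cdh3 stood at 27.4, 21.0 and 18.4 RPKM in the libraries labelled WT, above Cdh1 at 0.0743, while Cdh6 was below it at 0.0125 RPKM there. Of 11 listed 6 were tested and 5 were called higher, where 11.6% of all genes were, with a median of 0.89. Cdh3, which encodes P-cadherin and lies 46.1 kb from Cdh1, was counted 2492, 2724 and 2605 times under the WT label and 6869, 8115 and 6368 under the KO label, a log2 ratio of 1.26 ± 0.03 (edgeR adjusted p = 3.00e-12). Cdh11, the mesenchymal OB-cadherin gene, rose from 187 to 381 CPM, a log2 ratio of 1.02 ± 0.03 (edgeR adjusted p = 5.95e-11). Cdh6, Cdh24 and, named after its values were seen, Cdh13 were called at 3.26, 0.75 and 0.73. Cdh6 was near the floor under the WT label, with 4, 5 and 2 counts against 41, 44 and 38 under the KO label. Cdh2, which encodes the N-cadherin of both mesothelium and fibroblasts, was at 221 and 216 CPM with a log2 fold change of -0.03.

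Of 15 symbols listed for relatives and partners of ezrin 11 were tested and 2 were called, both higher, with a median of 0.00. That is 18.2% of those tested, against 17.7% of all genes. The listed Nherf1 and Nherf2 are other symbols of Slc9a3r1 and Slc9a3r2, which were tested. The paralogs Msn (moesin, 372 and 288 CPM) and Rdx (radixin, 128 and 146 CPM) had log2 fold changes of -0.37 (standard error 0.04) and 0.18 (standard error 0.03), both with an adjusted p under 0.05 and under the fold limit. The scaffold gene Slc9a3r1 was at 220 and 281 CPM (0.35), and Nf2, Slk, Cd44 and Arhgdia lay between -0.08 and 0.06. Stk10, which encodes a kinase of ezrin family proteins, rose by 0.86 ± 0.07 (edgeR adjusted p = 1.95e-07), and Podxl, which encodes a surface protein bound to ezrin, was called at 0.60 as given above.

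Calls among the genomic neighbours of the members were about as frequent as among all genes. The 2 nearest genes tested on either side of each member make 28 genes without the members themselves. Of these, 5 were called, 17.9%, against 17.7% of all genes. Genes not tested were passed over, so the gaps ran from 5.21 kb (Gm35853 to Krt7) to 1490 kb (Fbxo8 to Gpm6a). Called neighbours were Wdr17 beside Gpm6a (2.16), Gm35853 (-1.10) and Krt80 (1.10) beside Krt7, Cdh3 beside Cdh1 (1.26) and Chtf18 beside Msln (1.05). No call fell among the 4 neighbours each of Ezr, Upk3b and Wt1, with log2 fold changes from -0.48 to 0.53.

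**Figure D5:**
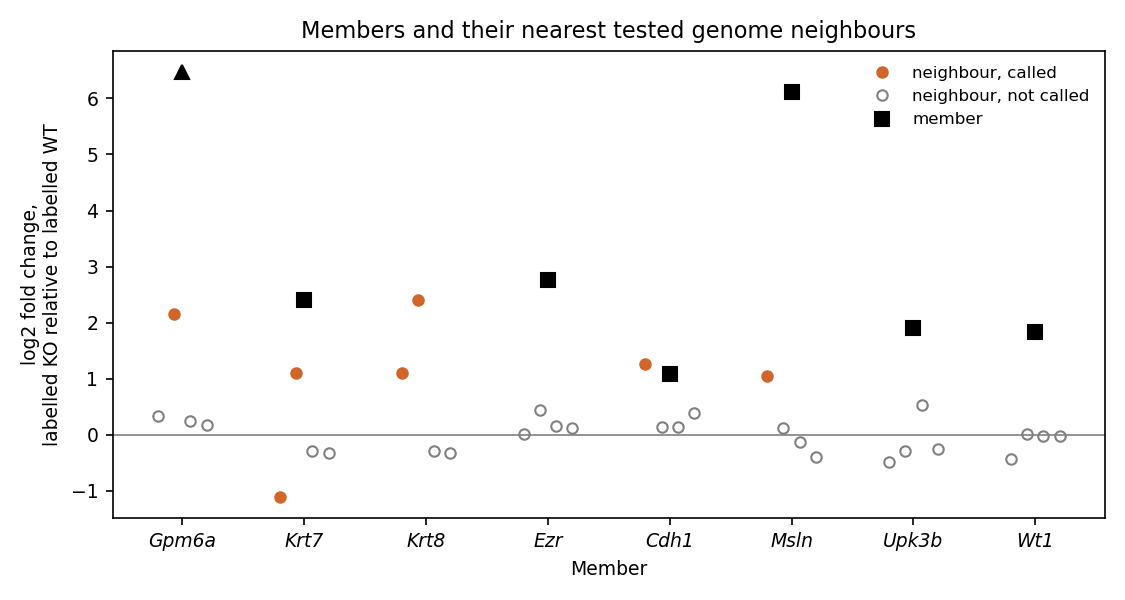
Log2 fold change of each member tested (black squares, with a triangle for the lower bound of Gpm6a) and of the 2 nearest genes tested on each side (orange where called, open where not); Krt8 was not tested, and Krt7 and Krt80 are among its neighbours. Ezr (2.77), Upk3b (1.90) and Wt1 (1.83) stand above neighbours that lie between -0.48 and 0.53.

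For each member with at least 1 CPM in a group, the 2 genes with the most similar profile over the 6 libraries were sought among 12570 others, by the distance of centred log2 CPM with 0.1 added. For Upk3b these were Npnt and Tspan8, at distances of 0.0945 and 0.161, for Wt1 Kif18b and Rhbdl3 (0.0832 and 0.108), for Ezr Cd34 and Sema3d (0.141 and 0.166) and for Krt7 Gdnf and Alcam (0.165 and 0.201). For Msln they were Mpzl2 and Gpc3 (0.274 and 0.468) and for Gpm6a Chrm2 and Col4a3 (0.298 and 0.411), 4 genes at or near 0 in the libraries labelled WT, whose distances depend on the value added. With only 6 libraries in 2 groups, likeness here is mainly likeness of the group difference.

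Markers of other cells moved with some of these genes. Of 15 fibroblast markers 12 were tested, 5 called lower and 1 higher, where 6.10% and 11.6% of all genes were. Their summed level was 59200 to 60200 CPM in the libraries labelled WT and 49300 to 51600 in those labelled KO. Dcn fell by 1.55, Lum by 5.6 and Pdgfra by 0.90 on the log2 scale, while S100a4, the 1 called higher, rose by 1.67, from 2.31 to 7.36 CPM. Acta2 (1890 and 1900 CPM) and Fn1 (11800 and 11000 CPM) were not called, and Thy1 had 0 to 4 counts under the WT label and 9 to 19 under the KO label. Fap and Pdpn matched no row. Of 8 pancreatic duct markers 3 had a row, summing to 19.3 to 22.5 CPM under the WT label and 11.6 to 13.8 CPM under the KO label. They did not share a direction: Spp1 was called lower (-1.33). Sox9 was lower (-0.5) and Muc1 higher (0.57, from 1.79 to 2.7 CPM), and neither was called. Of 9 acinar markers only Cela1 had a row, at 7.36 to 8.84 and 13.6 to 15.4 CPM, and was called higher. Of 8 endocrine markers Nkx6-1 had a row, at 0.345 to 0.606 and 0.757 to 1.36 CPM and called higher, and of 7 endothelial markers Vwf, at 0.866 to 1.60 and 0.763 to 0.939 CPM. Of 7 immune markers 3 had a row, at 39.5 to 45.6 and 38.4 to 40.1 CPM in all, mostly Lyz2 (log2 fold change -0.17). Of 9 neural and Schwann markers 5 had a row, at 9.10 to 9.23 and 13.4 to 15.3 CPM, and Tubb3 was called higher. The defining genes Ptprc, Pecam1, Ptf1a, Ins1, Sox10 and Epcam matched no row. The part of these markers in the differences above was not tested. Xist, the only listed sex-linked gene with a row, had 31283 to 45167 counts under the WT label and 20696 to 28552 under the KO label.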

How the data were processed

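RNAseq of polyadenylated RNA was analysed in 6 libraries, grouped by the genotype label. The authors deposited raw counts of reads per gene and log2 values of CPM that limma's voom had scaled. The submitters' processing notes name STAR 2.7.2b, featureCounts, limma and GRCm38.p6, and whether counting used strand is not given in the sources used here. Genes with low counts were already absent from the tables. The test was edgeR's quasi-likelihood F test on these counts (version 4.0.16, R 4.3.3, TMM factors, filterByExpr). It was also run on simulated counts drawn with the means, dispersions and library sizes of these data. A gene was called at a Benjamini-Hochberg adjusted p under 0.05 over 14289 genes and a change of at least 1.5-fold. Standard errors come from the log2 fold change and its F statistic, and CPM from TMM-scaled totals. A floor is 3 counts per library and covers counting error only. For 1 gene in 3 against 3 libraries the smallest p of an exact permutation test is 0.1.

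Positions and exon lengths are from GENCODE M21, which matched 14822 identifiers, and gave names to 1158 of 1165 genes without a symbol. Promoter windows are RefSeq's on GRCm38.p6. Within groups, every pair of libraries differed beyond counting noise, at a chi-square per degree of freedom of 2.5 to 7.74. The members and lists were chosen with earlier results of these data known. Genes named are the members, up to 4 called genes in each direction of each list, genes at 50 CPM or more in a group, the nearest profiles, and those said to be outside this rule. Snai1, Snai2, Twist1, Esrp2, Upk1a, Gpm6b, Krt10, Sox9 and Muc1 were also named after their values were seen. Alternatives covered scaling (RLE, upper quartile, library totals), count filters, fold limits, DESeq2 1.42.0, limma 3.58.1 on counts and on the deposited log2 values, and leaving out each library.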

Additional observations from a re-analysis of the deposited data

How the results depend on the processing

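Every member tested kept its direction under all 13 or 14 alternatives, with log2 fold changes of 2.33 to 2.48 for Krt7, 2.74 to 2.83 for Ezr, 0.96 to 1.26 for Cdh1, 5.99 to 6.23 for Msln, 1.85 to 1.95 for Upk3b, 1.73 to 1.95 for Wt1 and 6.69 to 7.34 for Gpm6a, whose fitted value depends on the prior count. Without the fold limit 8391 genes were called, and with at least 2-fold 1456. For coelomic epithelium factors those counts were 7 and 2, for other intermediate filament genes 8 and 1, for mesenchymal factors 8 and 1 and for ezrin partners 6 and 0 (edgeR; Stk10 and Podxl lie between the fold limits). Without the limit 15 junction genes were called, and at 2-fold 3 cadherins. Without a count filter 2 other keratins were called, the second being Krt17. Under a filter of 10 counts in each library, or with limma on the deposited log2 values, 1 intermediate filament gene was called. With each library left out in turn, 1 to 2 other keratins, 1 to 3 intermediate filament genes, 1 to 2 ezrin partners and 9 to 10 other mesothelial markers were called; Podxl was lost without the third library labelled WT or the first labelled KO. Upper-quartile scaling called Nectin2 (0.61), and DESeq2 did not call Lhx9 (adjusted p = 0.0867) or Eppk1 (0.0506). No paired analysis was possible because the labels give no shared replicate numbers. Genes under about 10 counts in a group, such as Krt8, Krt17, Cd200 and Cdh6, are limited by depth.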
